A study of Mus musculus with 12 samples.

Results

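The 38 genes described here serve the antioxidant programme of the transcription factor NRF2 (gene Nfe2l2), the supply and use of glutathione, the thioredoxin system and the supply of NADPH. They were listed by symbol and read in mouse alveolar macrophages, the resident phagocytes of the air spaces, recovered by lavage. All 38 were among the 23413 genes of the deposited count table. All 38 also passed the filter on low counts, which left 12748 genes to test. The 12 libraries fell into 6 pairs. In 4 of them the RNA was taken from freshly lavaged cells of wild-type mice or of mice labelled VDR knockout, meant to lack the vitamin D receptor, aged 4 weeks or 10 weeks. In the remaining pairs, lavaged wild-type cells had spent 24 h in complete medium, with no agent in one pair and with 50 nM vitamin D3 in the other. The labels give neither the strain, nor the allele of the knockout, nor the age of the mice behind the cultures. They also do not say whether a library holds 1 animal or a pool, so the error behind each p-value is that between libraries and may be partly technical.

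NRF2 is held in the cytoplasm by KEAP1, which hands it to a ubiquitin ligase for destruction. Oxidants and electrophiles modify cysteines of KEAP1, and NRF2 then enters the nucleus, pairs with a small MAF protein such as MAFG and binds antioxidant response elements near its target genes. BACH1 competes for the same elements, and p62 (Sqstm1) draws KEAP1 away from NRF2. The targets make and recycle glutathione and thioredoxin, both of which are kept reduced with electrons from NADPH, and NADPH comes chiefly from the pentose phosphate pathway, malic enzyme and isocitrate dehydrogenase. Alveolar macrophages live in oxygen-rich air spaces beside surfactant, where inhaled particles and their own oxidative burst make these systems a constant need.

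The antioxidant response element is read in DNA as a short core, and the promoters of these genes show where it lies. Each RefSeq window ran from 250 bases before a gene's start to 50 after it (assembly GRCm38.p6), and 34 of the 38 genes matched a window, all but Gsr, Prdx6, Gclc and Abcc1. The core TGACNNNGC, on either strand, was found in 11 of the 34 genes (32.35%) and in 13.99% of 27025 genes with a window. The 11 were Nfe2l2, Mafg, Gclm, Txnrd1, Srxn1, Prdx1, Me1, G6pdx, Pgd, Sod1 and Ugdh. The AP-1 motif TGANTCA, whose letters can overlap the core, was in 14.71% of the matched genes and in 8.973% of all. Both motifs overlapped in Me1 and Prdx1 (5.882%, against 0.5032% of all genes). The 5 stretches below belong to genes whose values are given later. Each is the part of a window around the core, 69 to 129 bases long, so it need not reach the start. It is printed on the strand of the gene with the core in capitals and with no base after the start other than those of the core.
Me1, chr9:86695912-86695980, minus strand: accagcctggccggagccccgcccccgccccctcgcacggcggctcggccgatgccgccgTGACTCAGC
Prdx1, chr4:116685406-116685534, plus strand: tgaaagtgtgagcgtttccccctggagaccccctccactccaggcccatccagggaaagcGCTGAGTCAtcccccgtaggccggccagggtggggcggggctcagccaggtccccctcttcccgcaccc
Txnrd1, chr10:82859054-82859182, plus strand: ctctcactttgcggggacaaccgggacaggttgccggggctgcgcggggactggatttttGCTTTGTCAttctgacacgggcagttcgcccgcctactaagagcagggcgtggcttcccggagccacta
G6pdx, chrX:74428881-74428997, minus strand: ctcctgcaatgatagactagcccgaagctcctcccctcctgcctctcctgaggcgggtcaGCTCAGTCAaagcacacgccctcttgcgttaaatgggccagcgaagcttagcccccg
Gclm, chr3:122245363-122245491, plus strand: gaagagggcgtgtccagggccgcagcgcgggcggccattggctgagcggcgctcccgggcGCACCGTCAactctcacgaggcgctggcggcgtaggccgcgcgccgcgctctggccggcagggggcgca
In Me1 the core begins 6 bases before the start and carries the AP-1 letters TGACTCA within it, and in Prdx1 it begins 133 bases before the start and carries them on the other strand. In Txnrd1, G6pdx and Gclm it begins 92, 57 and 134 bases before the start. Txnrd1 has 3 windows and Me1 has 2, and in each gene only 1 of them holds the core. A match describes letters only and says nothing of binding in these cells.

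Total counts ran from 10409572 to 23233674 per library, so 1 count was worth at most 0.0904 CPM. CPM, the unit of level used below, is counts per 1000000 after TMM, a scaling between libraries that rests on the bulk of genes. In every group the replicates differed by more than counting error (chi-square per degree of freedom of 10.1 to 54.0). Transcripts of Vdr were counted in both genotypes, at 31.3 to 84.2 CPM in knockout and 56.5 to 126.9 CPM in fresh wild-type libraries. The ranges overlapped, and the files do not say which exons the allele lacks, so this checks the labels only weakly. Cyp24a1, the vitamin D-degrading enzyme, had 9859 and 3069 counts with vitamin D3, 7 and 3 without it and at most 2 in any fresh library. Replicate 2 of each genotype at 10 weeks carried Xist and not Ddx3y and was female, while the other 10 libraries were male in this respect. At 10 weeks, the description codes of knockout replicate 1 and wild-type replicate 2 name the opposite genotype to their source name and genotype label, which were followed. All 14 alveolar macrophage markers in the table passed the filter, and their summed level was 26490 to 47250 CPM in fresh and 16080 to 20250 CPM in cultured libraries. Chi3l3 made up most of the fresh sum, at 14990 to 34320 CPM, and had 5044 to 5744 CPM in culture. Mrc1, Fabp1, Car4, Ear1, Ear2 and Krt79 were also lower in every cultured than in any fresh library. Itgax, Fabp4 and Lpl were higher in every cultured library, and the other markers overlapped. Marco set the 4-week knockout apart, whose libraries had 2195 and 2086 CPM of it, where 4-week wild type had 443 and 455.

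Levels per kilobase of exon, in CPM, set the scale on which the genes can be compared with each other. The length was that of all annotated exons of a gene merged (GENCODE vM21). It need not match the exons that were counted, so the order is approximate. In 4-week wild-type cells the highest was Gpx1, the main peroxidase that spends glutathione, at a mean of 462. Taldo1, Txn1 and Prdx1 followed at 310, 295 and 233. Targets often used as NRF2 reporters stood near the bottom, Slc7a11 at 2.16, Nqo1 at 1.14, Osgin1 at 0.411 and Me1 at 0.386. In untreated culture Txn1 led at 1287 and Prdx1 was second at 825. Me1 stayed lowest, at 1.78.

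**Figure D1:**
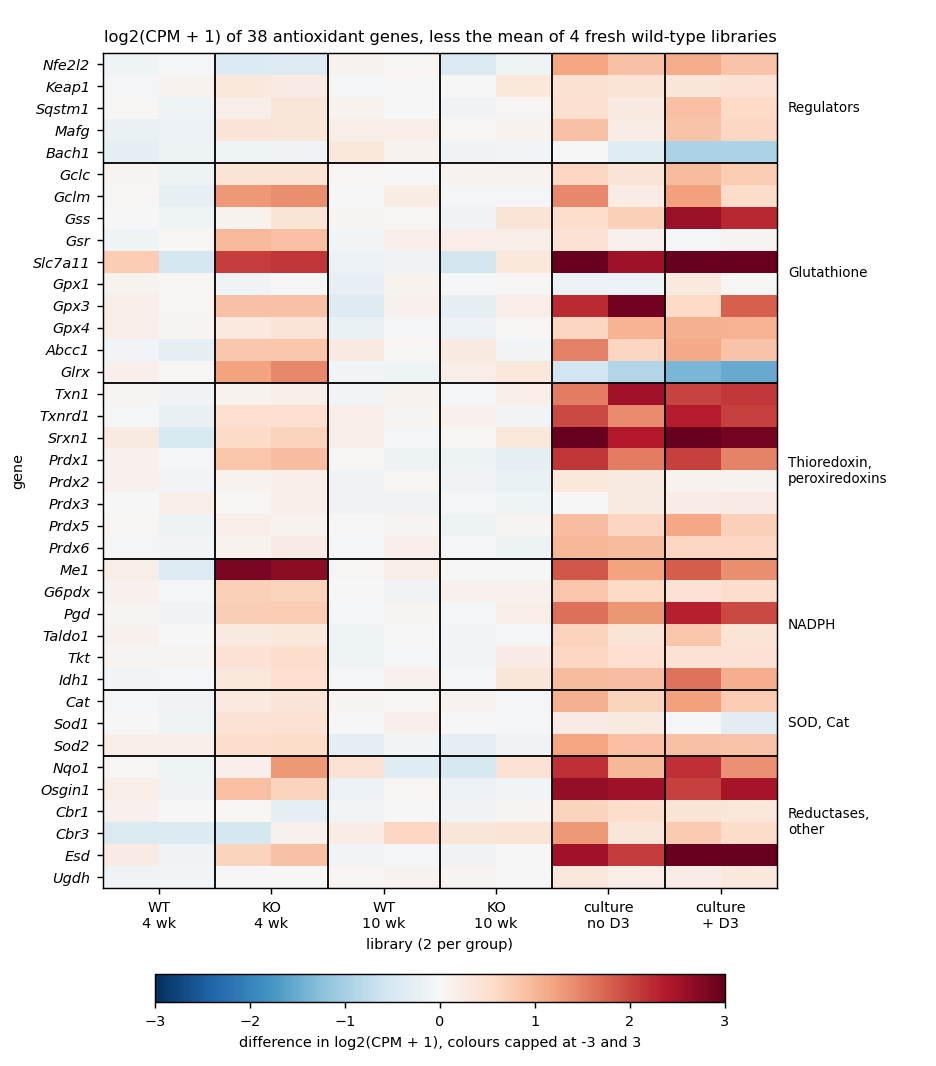
Each cell shows log2(CPM + 1) of 1 gene in 1 library, less the mean of the 4 fresh wild-type libraries, with genes in rows by role and 2 libraries per group in columns; colours stop at -3 and 3. The 4-week knockout and the 4 cultured libraries hold most of the red cells, and Me1 is the darkest row at 4 weeks in the knockout.

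The first comparison of the design sets fresh knockout cells against wild type at each age. At 4 weeks the calls among these genes were all higher in the knockout. With edgeR's quasi-likelihood test adjusted over all genes, 5 of 38 rose (Me1, Glrx, Gsr, G6pdx and Pgd) and none fell, where 0.471% of all 12748 genes rose and 0.196% fell. The fitted log2 difference, knockout minus wild type, was above 0 for 34 of the 38, with a median of 0.43, against a median of -0.0066 over all genes. At an unadjusted p under 0.05, 23 of the 38 differed, as did 1525 of all 12748 genes. Both knockout libraries lay above both wild-type libraries for 32 genes and below them for Nfe2l2 and Gpx1. That separation was common, seen in 24% of all genes for higher and 24.6% for lower values.

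Enzymes that supply NADPH carried 3 of the 5 calls, and all 6 of the group had a difference above 0 (median 0.56). Me1, cytosolic malic enzyme, makes NADPH from malate. Its level was 1.96 and 1.01 CPM in the 4-week wild-type libraries against 17.8 and 16.0 CPM in the knockout. The knockout libraries were far above the wild type and close to each other, a log2 difference of 3.54 ± 0.36 (SE) or 11.6-fold (edgeR adjusted p = 0.000814). Pgd, the other NADPH-making enzyme of the pentose phosphate pathway beside G6pdx, was at 438 and 383 CPM in wild type against 688 and 701 CPM in knockout, a log2 difference of 0.76 ± 0.15 (adjusted p = 0.0451). G6pdx, which opens that pathway, was at 192 and 172 CPM and 291 and 279 CPM, a difference of 0.65 ± 0.11 (adjusted p = 0.0183). The groups did not overlap for either gene. G6pdx shares 418 exon bases with Ikbkg on the opposite strand, whose own log2 difference was 0.54 ± 0.16 (adjusted p = 0.187). Tkt and Taldo1 of the same pathway, and Idh1, differed by 0.40, 0.22 and 0.48 and did not pass.

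Among the 10 genes of glutathione supply and use, Gsr and Glrx rose, and 9 of 10 differences were above 0 (median 0.97). Glrx, glutaredoxin, removes glutathione from protein thiols. Its level was 68.2 and 62.9 CPM in wild type against 143 and 167 CPM in knockout, a log2 difference of 1.24 ± 0.13 (adjusted p = 0.000822). Gsr, glutathione reductase, returns oxidised glutathione to its working form with NADPH. Wild-type libraries had 249 and 284 CPM of it and knockout libraries 536 and 506 CPM, a difference of 0.97 ± 0.13 (adjusted p = 0.00453). For both genes the gap between the genotypes was larger than the spread within either. Slc7a11, the cystine importer that feeds glutathione synthesis, had the largest difference of the group without passing. Its wild-type libraries were spread widely, at 43.0 and 17.3 CPM, and the knockout libraries had 107 and 112 CPM (1.88 ± 0.38, adjusted p = 0.0519). Gclm, the modifier subunit of glutamate-cysteine ligase, was at 43.9 and 35.6 CPM and 106 and 114 CPM, a difference of 1.47 ± 0.32 (adjusted p = 0.0663). Its catalytic partner Gclc, at 50.4 and 43.0 CPM and 63.2 and 63.1 CPM, differed by less (0.44 ± 0.12, adjusted p = 0.147). Abcc1, which exports glutathione conjugates, had 1.01 ± 0.23 (adjusted p = 0.0887). The peroxidases Gpx1, Gpx3 and Gpx4 had -0.13, 0.98 and 0.20 and none passed.

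None of the 8 thioredoxin and peroxiredoxin genes passed at 4 weeks, and 7 of 8 differences were above 0 (median 0.22). Prdx1, a cytosolic peroxiredoxin, was at 753 and 666 CPM in wild type against 1220.2 and 1299 CPM in knockout (0.83 ± 0.20, adjusted p = 0.109). Txnrd1, which reduces thioredoxin with NADPH, was at 167 and 147 CPM and 244 and 245 CPM (0.64 ± 0.17, adjusted p = 0.142). Srxn1, which repairs overoxidised peroxiredoxins, was at 46.7 and 27.7 CPM and 57.6 and 61.9 CPM (0.69 ± 0.27, adjusted p = 0.335). In each of these the knockout libraries lay above the wild type, but the wild-type libraries of Srxn1 were themselves wide apart. Txn1, Prdx2, Prdx3, Prdx5 and Prdx6 had differences from -0.016 to 0.25.

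Regulators did not pass at 4 weeks, and the gene for NRF2 itself lay on the other side of 0. Nfe2l2 was at 193 and 207 CPM in wild type against 159.8 and 161 CPM in knockout (-0.32 ± 0.14, adjusted p = 0.385). Keap1 was at 50.9 and 56.2 CPM and 65.6 and 61.7 CPM (0.25 ± 0.12, adjusted p = 0.420). Mafg, Sqstm1 and Bach1 had 0.59, 0.34 and 0.095. Nqo1, the quinone reductase most often read as an NRF2 target, was at 1.96 and 1.59 CPM in the wild-type and 2.16 and 5.96 CPM in the knockout libraries. One knockout library was near the wild type and the other well above it, and the difference was 1.18 ± 0.66 (adjusted p = 0.523). Sod1, Sod2 and Cat, which remove superoxide and hydrogen peroxide, had 0.51, 0.36 and 0.41 with adjusted p-values of 0.0617, 0.246 and 0.333. Of the remaining enzymes, Osgin1 had 1.197, Esd 0.70, Cbr3 0.29, Ugdh 0.091 and Cbr1 -0.17, and none passed.

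**Figure D2:**
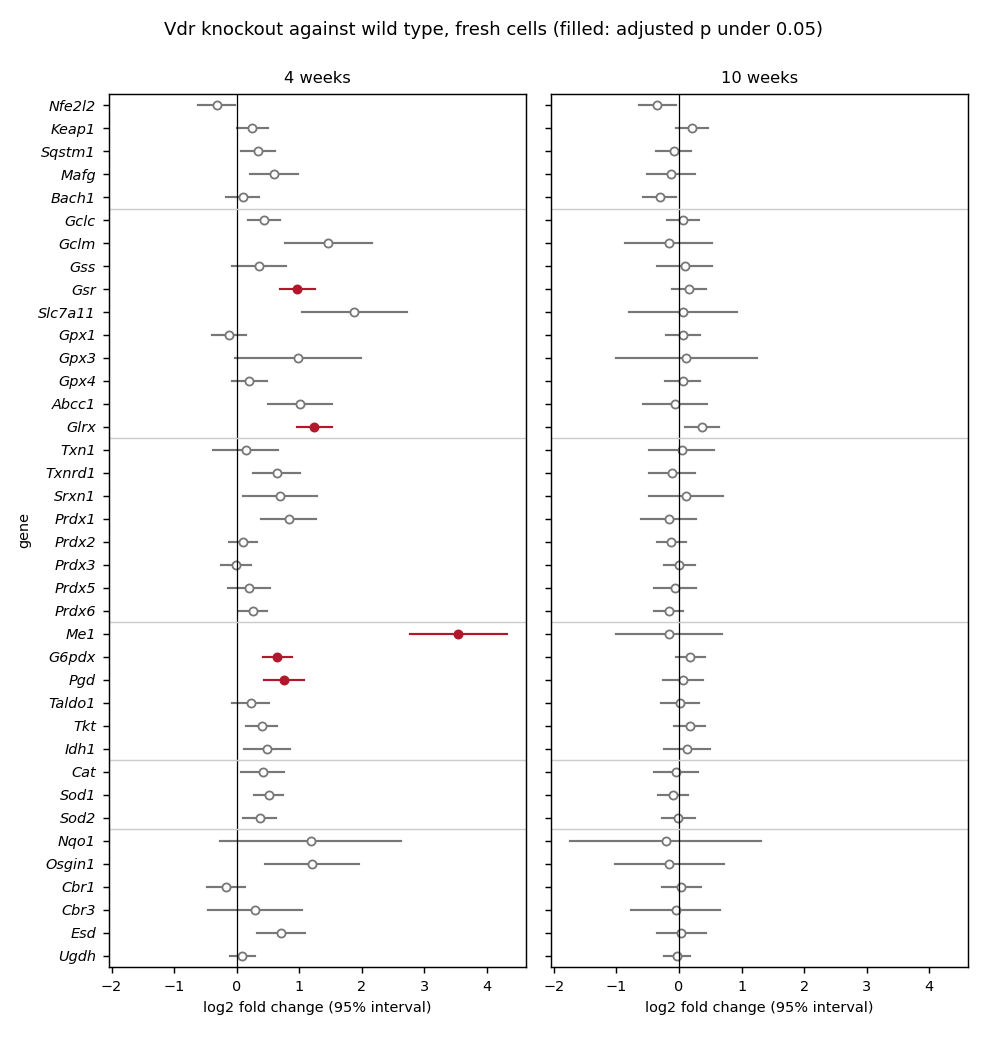
Points are the fitted log2 fold changes of the 38 genes, knockout over wild type, at 4 weeks (left) and 10 weeks (right), with 95% intervals; filled points have an adjusted p under 0.05 and grey lines divide the roles. On the left, 5 points are filled and 34 lie right of 0, with Me1 at 3.54; on the right no point is filled and they scatter around 0.

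Other genes of the same pathways were read from a list of 62, of which 54 were tested. At 4 weeks 7 of the 54 rose in the knockout and none fell, with a median difference of 0.12. Hmox1, haem oxygenase, was at 231 and 152 CPM in wild type against 985 and 991 CPM in knockout (2.37 ± 0.18, adjusted p = 0.000112). The ferritin chains Ftl1 and Fth1, which store the iron that haem breakdown frees, had differences of 1.01 and 0.95. Akr1b8, an aldo-keto reductase, had 2.08, Ptgr1 1.07, Htatip2 0.87 and Nnt, the mitochondrial transhydrogenase that makes NADPH, 1.02.

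Marker genes of other cell types moved with this comparison. Erythroid markers, 8 in the table and 7 tested, summed to 3159 and 1336 CPM in the 4-week wild type and to 349 and 646 CPM in the knockout, most of it Hba-a1. Dendritic cell markers (8 in the table, 7 tested) summed to 99.8 and 35.3 CPM against 18.8 and 19.9 CPM, with Cd209a at 0 in the knockout. T and B cell markers (8 in the table, 6 tested) summed to 211 and 185 CPM against 130.5 and 141 CPM, nearly all of it Cd2, and the defining Cd3d was at most 1.26 CPM. Markers of monocytes and interstitial macrophages (6 in the table, 5 tested) summed to 15.9 and 11.73 CPM in wild type against 6.47 and 7.64 CPM in knockout. The sums of 11 epithelial markers overlapped, at 207 and 141 CPM against 160 and 408 CPM. Those of 7 neutrophil markers, of which 4 were tested, were 73.4 and 80.8 CPM in wild type against 66.4 and 67.5 CPM in knockout. Csf3r was lower and S100a8 higher in the knockout, and Mpo was at 0 throughout these libraries. Handling and stress genes (Fos, Jun, Egr1, Hspa1a and Hspa1b) summed to 673 and 532 CPM in wild type and 319 and 323 CPM in knockout. The part of these transcripts in the differences above was not tested. In bulk RNA, fewer cells of a type and less RNA per cell cannot be told apart. Me1 and Glrx passed in each of the 4 fits that left out 1 library of these groups. Slc7a11 passed without wild-type replicate 1 (adjusted p = 0.0214). Gsr did not pass without wild-type replicate 1 (adjusted p = 0.0811) or without knockout replicate 1 (adjusted p = 0.0629). Neither G6pdx nor Pgd passed in any of the 4, with adjusted p-values up to 0.174 and 0.313, so the count of 5 became 2 when knockout replicate 1 was left out and 3 when any of the other 3 libraries was.

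At 10 weeks no difference between genotypes was called among these genes. edgeR called 0 of 38, with 3 at an unadjusted p under 0.05 (1244 of all 12748 genes), a smallest adjusted p of 0.343 and 0 calls by DESeq2's Wald test; over all genes 0.0863% rose and 0.0235% fell. Differences were above 0 for 19 genes and below it for 19, with a median of -0.0042. Me1 was at 1.72 and 1.98 CPM in wild type against 1.66 and 1.63 CPM in knockout, a difference of -0.16 ± 0.39 with a 95% interval from -1.01 to 0.69. Slc7a11 was at 22.0 and 23.0 CPM and 16.7 and 31.2 CPM, and Gclm at 42.0 and 50.1 CPM and 40.6 and 41.2 CPM. The groups overlapped for Slc7a11, and for Me1 and Gclm the knockout libraries lay just under the wild type. Glrx, at 57.8 and 56.1 CPM in wild type against 68.9 and 78.2 CPM in knockout, had the largest difference (0.37 ± 0.13, adjusted p = 0.343). Nfe2l2, at 226 and 219.9 CPM and 157 and 194 CPM, had the lowest (-0.35 ± 0.14, adjusted p = 0.412). With the libraries of conflicting codes exchanged, the difference of Nfe2l2 was 0.11, and again 0 of 38 genes were called. Nqo1 depended on the library, at 2.86 and 1.19 CPM in wild type against 1.02 and 2.80 CPM in knockout, so its male pair and its female pair differed in opposite directions. Within the pairs of equal sex, which are also pairs of equal title series, 11 genes were higher in the knockout in both. Another 11 were lower in both, and the other 16 changed side. The same count over all genes was not made. None of the 54 companion genes passed at 10 weeks.

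The difference between ages was tested directly as an interaction, the genotype difference at 10 weeks less that at 4 weeks. Me1 alone of the 38 passed, at -3.70 ± 0.52 on the log2 scale (edgeR adjusted p = 0.0200). Over all genes 0.0628% had a positive and 0.126% a negative call. Values were below 0 for 35 of the 38 genes, with a median of -0.42. Glrx had -0.87 ± 0.18 (adjusted p = 0.122), Gsr -0.81 ± 0.18 (adjusted p = 0.155) and Gclm -1.63 ± 0.45 (adjusted p = 0.302). Slc7a11 had -1.81 ± 0.54 (adjusted p = 0.364). The call on Me1 was kept without 4-week wild-type replicate 1 and lost in each of the other 7 fits that left out 1 library, with log2 values from -4.21 to -3.27 and adjusted p-values up to 0.103. Without both female libraries the call was lost and the value was -3.60. The 10-week libraries left in that fit differed from the 4-week ones in title series too.

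Age within each genotype gives the same libraries from the other side, so these values share data with those above. In wild type no member passed between 10 and 4 weeks, with 4 at an unadjusted p under 0.05 (2367 of all 12748 genes) and 1 call (Bach1) by DESeq2's Wald test. Over all genes 1.4% rose and 0.706% fell, and the median of the 38 was 0.060. The smallest adjusted p was that of Bach1, at 153 and 165 CPM at 4 weeks and 234 and 199 CPM at 10 weeks (edgeR adjusted p = 0.0840). In the knockout 12 of 38 were lower at 10 than at 4 weeks and none higher, where 4.83% of all genes fell and 4.89% rose. The median of the 38 was -0.37, and 32 values were below 0. Me1 fell by 3.35 on the log2 scale, from 17.8 and 16.0 CPM to 1.66 and 1.63 CPM (adjusted p = 0.000295). Slc7a11 fell by 2.22, from 107 and 112 CPM to 16.7 and 31.2 CPM (adjusted p = 0.00562). Prdx1 fell by 1.10, from 1220.2 and 1299 CPM to 612 and 567 CPM (adjusted p = 0.00699). The 10-week knockout values of Me1 lay within the range of the 4 wild-type libraries, 1 of those of Slc7a11 was just under that range, and both of those of Prdx1 were. Osgin1, an oxidative stress-induced growth inhibitor, changed by -1.57, Gclm by -1.42, Glrx by -1.07, Esd by -0.83, Gsr by -0.75 and Sod2 by -0.73. Pgd, G6pdx and Sod1 completed the 12 with -0.67, -0.57 and -0.46. Me1, Glrx, Sod2, Gsr and Slc7a11 passed in each of the 4 fits without 1 library, while Gclm, Osgin1 and Sod1 passed in none of them, with adjusted p-values up to 0.113, 0.131 and 0.134. Marker sums moved with age in the knockout as well. Erythroid markers went from 349 and 646 CPM at 4 weeks to 48.5 and 53.1 CPM at 10 weeks. Handling and stress genes were at 319 and 323 CPM and then 586 and 419.6 CPM, mostly through Fos. Egr1 was higher too, while Jun, Hspa1a and Hspa1b overlapped. T and B cell markers, nearly all of it Cd2, were at 130.5 and 141 CPM and then 235 and 203 CPM. Dendritic cell markers were at 18.8 and 19.9 CPM and then 29.3 and 27.2 CPM, mostly through Clec9a, while Ccr7 fell. Those of neutrophils were at 66.4 and 67.5 CPM and then 86.5 and 94.98 CPM, mostly through Csf3r, while S100a9 fell. Those of monocytes were at 6.47 and 7.64 CPM and then 11.8 and 8.404 CPM. Epithelial sums overlapped, and the part of any of these in the differences was not tested. In each of the 4 fits without 1 library fewer of the 38 genes were called, and fewer of all genes as well.

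**Figure D3:**
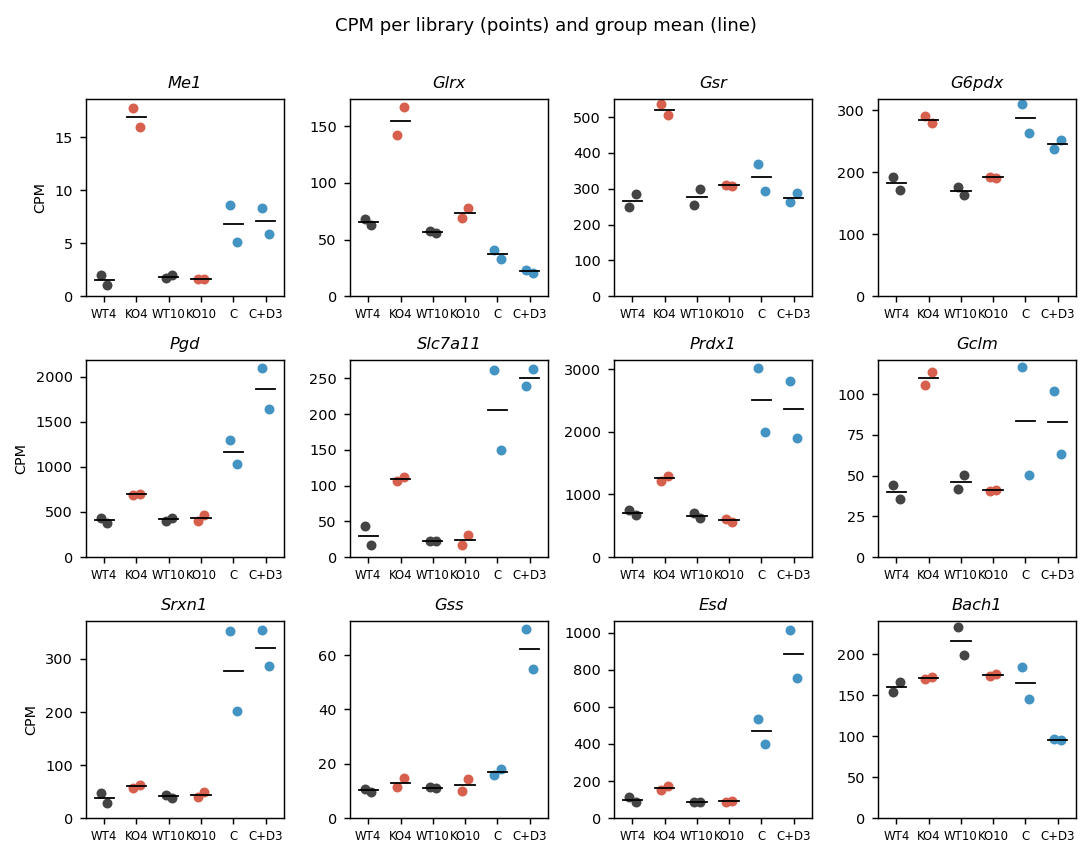
Points are CPM in single libraries and lines are means of 2, for 12 genes in wild type (WT) and knockout (KO) at 4 and 10 weeks and in culture without (C) and with vitamin D3 (C+D3); axes are linear from 0. Me1 at 4 weeks in the knockout stands at 17.8 and 16.0 CPM, above its cultured libraries, whereas Srxn1, Esd and Prdx1 are highest in culture and Gss is high with vitamin D3 alone.

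Vitamin D3 in culture changed few of these genes. With edgeR 3 of 38 (7.89%) rose, where 5% of all genes did, and 4 of 38 (10.5%) fell, where 5.63% of all genes did, so the shares were near those of all genes. The median difference was -0.0043, with 19 values on each side of 0. Gss, glutathione synthetase, was at 16.0 and 18.1 CPM without and 69.6 and 55.1 CPM with vitamin D3, groups far apart (1.88 ± 0.19, adjusted p = 0.000103). Its exons share 395 bases with Acss2, acetyl-CoA synthetase, on the opposite strand, and with the antisense genes Gssos1 and Gssos2. Acss2 was at 10.5 and 12.6 CPM without and 61.9 and 35.7 CPM with vitamin D3 (2.09 ± 0.27, adjusted p = 0.000465). No source used here states whether counting used strand, so reads of the 2 genes cannot be told apart where they overlap.

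Esd, an esterase that acts on S-formylglutathione, was at 537 and 401 CPM without and 1018 and 756 CPM with vitamin D3 (0.92 ± 0.17, adjusted p = 0.00586); the annotation holds a pseudogene named after it. Pgd was at 1298 and 1035 CPM and 2098 and 1636 CPM (0.68 ± 0.15, adjusted p = 0.0116). Both treated libraries were above the untreated ones, and the libraries within each treatment were spread widely. Bach1, the repressor at antioxidant response elements, fell from 184 and 145 CPM to 95.8 and 94.98 CPM (-0.79 ± 0.12, adjusted p = 0.00181). Glrx fell from 41.0 and 32.9 CPM to 22.8 and 20.8 CPM (-0.76 ± 0.13, adjusted p = 0.00355). Sod1 and Prdx6 fell by 0.43 and 0.35 on the log2 scale (adjusted p = 0.0233 and 0.0446). Gpx3, a secreted peroxidase, was at 13.4 and 21.6 CPM without and 3.59 and 9.55 CPM with vitamin D3 and did not pass (-1.43 ± 0.42, adjusted p = 0.0506).

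None of Nfe2l2, Keap1, Srxn1, Gclc, Txnrd1, Gclm, Slc7a11, Me1 and Nqo1, the genes read as the core of the NRF2 response, passed with vitamin D3 in the edgeR model of all 12 libraries. Nfe2l2 had -0.057 (95% interval -0.35 to 0.24), Keap1 -0.022 (-0.27 to 0.23) and Srxn1 0.21 (-0.35 to 0.77). Gclc had 0.36 (0.11 to 0.62) and Txnrd1 0.47 (0.11 to 0.84). For Txnrd1 the call depended on the method and on 1 library. Its edgeR adjusted p was 0.104, DESeq2's Wald test gave 0.0354 and edgeR with no filter on low counts gave 0.00276. Without untreated replicate 1 its difference was 0.79 (adjusted p = 0.0140), and without untreated replicate 2 it was 0.22. Gclc had an adjusted p of 0.0741, and with a block for pairs of libraries Gclc passed at 0.0428 and Txnrd1 at 0.0161. Intervals were wide for Gclm (-0.69 to 0.65), Slc7a11 (-0.50 to 1.07), Me1 (-0.63 to 0.74) and Nqo1 (-1.14 to 1.40), and changes of those sizes in either direction lie within them. Of the 54 companion genes 5 rose and 6 fell. Mthfd2, a mitochondrial folate enzyme, had 1.25 and Hmox1 0.93, while Ggt5, a gamma-glutamyl transferase, had -2.18, Trim16 -1.06, Mgst3 -0.89 and Nadk, which makes NADP, -0.52. Gss, Bach1 and Glrx passed in each of the 4 fits without 1 library. Esd was lost without vitamin D3 replicate 1 (adjusted p = 0.0681), and Pgd without that library (adjusted p = 0.127) or untreated replicate 2 (adjusted p = 0.0683). Sod1 passed only without vitamin D3 replicate 1, with adjusted p-values of up to 0.146 in the others, and Prdx6 passed in none of the 4, with values up to 0.207. In these 4 fits the number of members called lay above or below that with every library kept, and fewer of all genes were called in each. Marker sums of other cells moved with vitamin D3 too. Those of T and B cells were 218 and 225 CPM without and 120.5 and 135 CPM with it, nearly all of it Cd2. Those of neutrophils were 76.3 and 82.6 CPM against 60.7 and 65.6 CPM, where Csf3r and S100a8 were lower and Cxcr2 was higher. Those of dendritic cells were 40.2 and 35.7 CPM against 28.6 and 32.1 CPM, mostly through Clec9a, and Ccl22 overlapped. Monocyte and interstitial macrophage markers summed to 9.19 and 7.45 CPM against 6.74 and 4.22 CPM. Epithelial markers summed to 35.7 and 34.2 CPM against 59.9 and 51.98 CPM. That rise lay in Cdh1, at 21.6 and 18.0 CPM against 50.4 and 40.3 CPM, and no other epithelial marker was higher with vitamin D3 without overlap. Handling and stress genes overlapped, at 106 and 127 CPM against 114 and 149.9 CPM. The part of these in the differences was not tested.

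Most of the 38 genes stood higher in cultured than in fresh cells. Untreated cells after 24 h, against the mean of the fresh wild-type groups, had 34 of 38 members higher and Glrx lower, where 23.5% of all genes rose and 22.3% fell. The median difference was 0.87, against -0.022 over all genes. Prdx3, Gpx1 and Bach1 were not called. Cultured and fresh libraries differ in composition, with scaling factors of 0.875 to 0.883 and 1.047 to 1.097, and scaling by library size alone moves every culture difference by -0.29. Scaled that way 24 members were higher and 3 lower (Gpx1, Bach1 and Glrx), and the sign of the difference turned for Gsr, Prdx3, Sod1 and Ugdh. The calls lost were 10: Gsr, Sod1, Ugdh, Keap1, Mafg, Sqstm1, Gclc, Gss, Prdx2 and Taldo1.

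Of the 8 genes of the thioredoxin system 7 were higher in culture (median 1.36). Srxn1 stood at 46.7 and 27.7 CPM at 4 weeks and 44.3 and 37.4 CPM at 10 weeks in fresh wild type and at 352 and 203 CPM in culture. Both cultured libraries lay above every fresh wild-type one by more than the spread within either group (2.84 ± 0.22, edgeR adjusted p = 1.17e-06). Txn1, thioredoxin, was at 332 and 288 CPM, 294 and 338 CPM and 900.0 and 1806 CPM in the same order (2.11 ± 0.20, adjusted p = 5.24e-06). Txnrd1 was at 167 and 147 CPM, 198 and 182 CPM and 689 and 467 CPM (1.74 ± 0.14, adjusted p = 1.70e-06). Prdx1 rose by 1.87, Prdx6 by 0.98, Prdx5 by 0.79 and Prdx2 by 0.29, which for Prdx2 became 0.0028 (adjusted p = 0.983) when scaled by library size alone. Txnip, a companion gene whose protein binds and blocks thioredoxin, fell from 1331 and 1483 CPM at 4 weeks and 1552 and 1537 CPM at 10 weeks to 123 and 105 CPM (-3.69 ± 0.12, adjusted p = 5.74e-09).

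Of the 10 glutathione genes 8 were higher in culture and Glrx was lower. Slc7a11 was at 43.0 and 17.3 CPM and 22.0 and 23.0 CPM in fresh cells at 4 and 10 weeks and at 261 and 149.6 CPM in culture (2.99 ± 0.31, adjusted p = 1.13e-05). Gpx3 was at 2.45 and 2.17 CPM, 1.33 and 2.30 CPM and 13.4 and 21.6 CPM (3.11 ± 0.36, adjusted p = 3.04e-05). Their cultured libraries lay above every fresh library but differed widely from each other. Glrx was at 41.0 and 32.9 CPM in culture, under all 4 fresh wild-type libraries (-0.72 ± 0.11, adjusted p = 0.000316). Gclm (0.98 ± 0.26, adjusted p = 0.00970) and Gclc (0.51 ± 0.10, adjusted p = 0.00139) were called, but Gclm was at 117 and 50.3 CPM, and without the higher library, untreated replicate 1, its difference was 0.24 (adjusted p = 0.419). Abcc1, Gpx4, Gss and Gsr rose by 1.15, 0.86, 0.67 and 0.29, of which the value of Gsr turned negative when scaled by library size alone. With that scaling Gss had 0.38 (adjusted p = 0.0761) and Gclc 0.23 (adjusted p = 0.0684). Acss2, whose exons overlap those of Gss, rose by 1.86 ± 0.24 in the main test (edgeR adjusted p = 7.73e-05). Reads of Gss and Acss2 cannot be told apart where they overlap.

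The reductases and other NRF2-linked enzymes were higher in 6 of 6 cases (median 1.57), although Ugdh had a negative value when scaled by library size alone. Esd was at 112 and 86.9 CPM and 87.9 and 88.9 CPM in fresh cells at 4 and 10 weeks and at 537 and 401 CPM in culture (2.33 ± 0.15, adjusted p = 2.39e-07). Osgin1 was at 1.33 and 0.869 CPM, 0.788 and 1.11 CPM and 11.4 and 10.7 CPM (3.46 ± 0.26, adjusted p = 9.97e-07). Pgd, at 1298 and 1035 CPM in culture, rose by 1.49 (adjusted p = 1.76e-06), and all 6 genes of NADPH supply rose (median 0.82), although Taldo1 had 0.28 (adjusted p = 0.0621) when scaled by library size alone. Me1, the gene that led at 4 weeks in the knockout, was at 8.59 and 5.10 CPM in culture (2.08 ± 0.29, adjusted p = 0.000109), which is under both 4-week knockout libraries. Nqo1 was at 1.96 and 1.59 CPM and 2.86 and 1.19 CPM in fresh cells and 11.98 and 4.62 CPM in culture (2.12 ± 0.52, adjusted p = 0.00565), and without untreated replicate 1 its adjusted p was 0.145. Sod2, Cat and Sod1 rose by 1.06, 0.88 and 0.26, Sod1 with a negative value when scaled by library size alone.

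Nfe2l2 was the most raised of the 5 regulators, at 193 and 207 CPM and 226 and 219.9 CPM in fresh cells at 4 and 10 weeks and 484 and 391 CPM in culture (1.05 ± 0.11, adjusted p = 1.64e-05). Mafg, Keap1 and Sqstm1 rose by 0.61, 0.43 and 0.37, and Bach1 had -0.17 (adjusted p = 0.201). Scaled by library size alone, Mafg had 0.33 (adjusted p = 0.0886), Keap1 0.15 (adjusted p = 0.274) and Sqstm1 0.089 (adjusted p = 0.500), none of them called, and Bach1 was called lower. Of the 54 companion genes 33 rose and 4 fell. Fth1 and Ftl1 had 2.13 and 1.78, Gstm1, a glutathione transferase, 2.80, and Akr1b8 3.62. Erythroid markers summed to 1.04 and 1.86 CPM and epithelial markers to 35.7 and 34.2 CPM in untreated culture, under every fresh library, and handling and stress genes to 106 and 127 CPM, also under every fresh library; their part in these differences was not tested. The fresh and cultured cells also differ in time outside the animal, medium and possibly in age, which cannot be told apart from culture itself. With 1 library left out at a time, as many members or fewer were called, fewest without untreated replicate 1. Fewer of all genes were called in each of these fits.

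**Figure D4:**
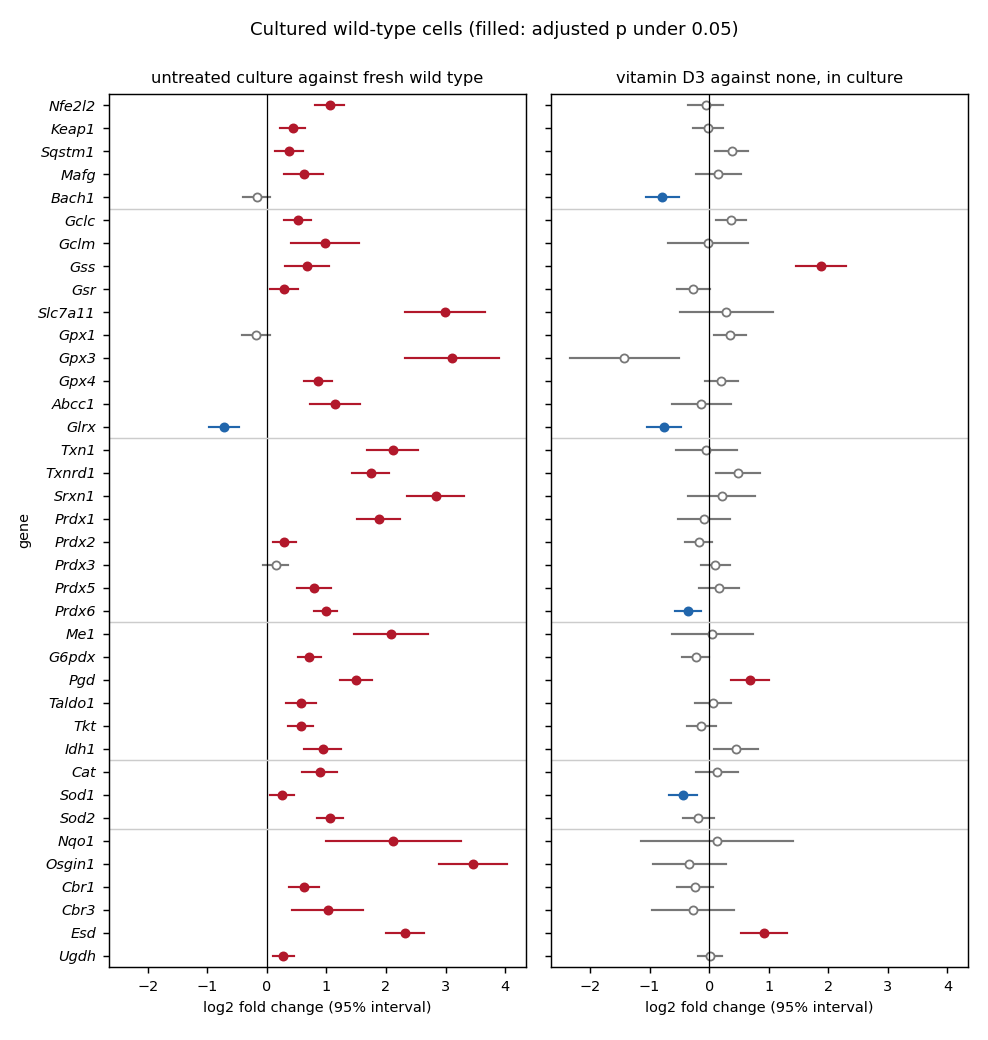
Points are fitted log2 fold changes of the 38 genes with 95% intervals, for untreated culture over fresh wild type (left) and vitamin D3 over none in culture (right); filled points have an adjusted p under 0.05, red higher and blue lower. On the left 34 points are red and Glrx is blue; on the right 3 are red and 4 blue, and Gss stands apart at 1.88.

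The cultured libraries also differed within a treatment. Replicate 1 was the higher of the 2 untreated libraries for 32 of 38 genes, and vitamin D3 replicate 1 was the higher of its 2 for 27 of 38. These counts were not made over all genes, so they cannot be read as particular to the 38. Both replicate 1 libraries, treated or not, lay above both others for 12 of the 38 genes (Nfe2l2, Nqo1, Gclm, Srxn1, Prdx1, Prdx5, Me1, Taldo1, Cat, Cbr3, Abcc1 and Mafg), which 16.3% of all genes did. Gclm was at 117 and 102 CPM in the replicate 1 libraries without and with vitamin D3 and at 50.3 and 63.4 CPM in the others. Nqo1 was at 11.98 and 4.62 CPM without and 11.9 and 6.32 CPM with vitamin D3. For both genes the gap within a treatment was larger than that between the means of the treatments.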

How the data were processed

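The authors deposited raw counts per gene for 23413 genes, with columns named by library title, and each of the 12 libraries matched 1 column. The submitters' processing notes name the aligner TopHat2, the package edgeR and the mouse build mm9. How the reads were counted, with which annotation and whether by strand, was not given in the sources used here. A deposited table of log2 values was not used. Differences were tested on the deposited counts with edgeR 4.0.16 (R 4.3.3, limma 3.58.1) by its quasi-likelihood F test, with TMM scaling and filterByExpr (minimum count 10, minimum total 15). One model held all 12 libraries and a term for each of the 6 groups, leaving 6 residual degrees of freedom. The Benjamini-Hochberg adjustment ran over 12748 genes, and an adjusted p under 0.05 was called. CPM values use TMM-scaled library sizes, and an SE is the log2 fold change over the root of its F. The code was also run on simulated counts with known changes. The 38 genes, the companion and marker lists and the tests were chosen with earlier results of these data known. Members past the threshold were named in each comparison, up to 12 by p, and Nfe2l2, Keap1, Nqo1, Gclc, Gclm, Slc7a11, Srxn1, Txnrd1 and Me1 throughout; others are named with values only. Exon overlaps and exon lengths come from GENCODE vM21 and promoters from RefSeq (GRCm38.p6), used for names, lengths and sequence, not for counting. Alternatives were the DESeq2 1.42.0 Wald test, its size factors, other filters, the replicate number as a block, fits on the compared groups alone, libraries left out, the disputed labels exchanged and, chosen after seeing the data, library size alone.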

Additional observations from a re-analysis of the deposited data

Results flagged for a closer look

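The difference between genotypes itself differed between ages, by edgeR's interaction term adjusted over all genes tested, for 1 of the 38 members and 3 of the 54 companion genes. Given as knockout minus wild type at 10 weeks less the same at 4 weeks, on the log2 scale, the values were -3.70 for Me1 (adjusted p = 0.0200), -2.87 for Hmox1 (adjusted p = 0.000707), -1.31 for Ptgr1 (adjusted p = 0.0482) and -1.02 for Ftl1 (adjusted p = 0.0203). In each of these genes the knockout was higher at 4 weeks. For Me1 the call was kept in 1 of 8 fits that left out a library.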

How the results depend on the processing

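The alternatives were followed for up to 12 called members per comparison, by p, and for the genes named throughout. Among these no called value changed sign. Values that were not called did so 40 times, in 8 members (Gclc, Gclm, Keap1, Me1, Nfe2l2, Nqo1, Slc7a11 and Srxn1), 29 of them with 1 library left out. Nqo1 at 10 weeks, -0.22 in the main test, was 0.60 without wild-type replicate 1, and Gclm with vitamin D3, -0.019, was 0.73 without untreated replicate 1. For members not followed in culture, scaling by library size alone turned the sign of Gsr, Prdx3, Sod1 and Ugdh there. Of these, Gsr, Sod1 and Ugdh were called higher in the main test, at 0.29, 0.26 and 0.27. Scaled by library size alone they had -0.0019, -0.027 and -0.012 and were not called. Over all alternatives, the value of a named member lost the call 74 times and gained it 36 times. It counted as unchanged 1092 times, being called again or uncalled and within 1 SE of the main value. Without a call it moved by 1 SE or more 56 times. The 40 turned signs lie within these last 2 groups, so the 1092 did not all keep their direction. Each count is followed by the share of all genes called. The 4-week genotype comparison called 5 members in the main test (0.667%), and 13 by DESeq2's Wald test (2.05%), 19 with no filter on low counts (3.92%), 20 when the fit held the compared groups alone (19 higher, 1 lower; 5.29%) and 3 with the disputed labels exchanged (0.329%). The interaction called 1 (0.188%), and 4 by DESeq2 (0.698%), 11 with no filter (2.22%), 5 with the compared groups alone (0.416%) and 0 without both female libraries (0.0749%). Age in wild type called 0 (2.11%), and 1 by DESeq2 (5.3%), 2 with no filter (6.94%) and 1 with the labels exchanged (2.6%). Age in the knockout called 12 (9.73%), and 19 with no filter (2059 of 17620 genes) and 6 without both female libraries (3.93%). Vitamin D3 called 7 (10.6%), and 11 with no filter (11.3%) and 3 with the compared groups alone (5.54%). A replicate block gave 11 members at 4 weeks (1.15%), 3 for the interaction (0.188%) and, with vitamin D3, 9 (12.1%), gaining Txnrd1, Gclc and Gpx3 and losing Prdx6. Deviations of same-numbered fresh libraries correlated at 0.122 at 10 weeks and -0.119 at 4 weeks. In culture the pairs were taken by series of titles, which share a source number in 1 pair and not in the other, and correlated at 0.272. The labels do not say what the numbers or titles stand for, and pairing was not established. With 1 library left out, no member passed for genotype at 10 weeks or for age in wild type. Fewer passed than in the main test for genotype at 4 weeks and for age in the knockout. For the interaction Me1 or no member passed. The number lay on either side of the main one with vitamin D3, and was equal or lower for culture. Fewer of all genes were called in these fits too, except for genotype at 10 weeks without knockout replicate 1. Such a fit assumes that a lone library varies like the other groups. Where a count moved, the cause was not tested. Nqo1, under 3 CPM in all 4 fresh wild-type libraries, had an SE of 0.66 at 4 weeks, so small differences of such low genes were not detectable.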
